A study of Homo sapiens with 9 samples.

Results

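The comparison described here is the second dose step of a citrinin series, 20 µM against 10 µM, in SH-SY5Y cells. SH-SY5Y is an established human neuroblastoma line whose cells resemble immature sympathetic neurons. Cultures received citrinin at 20 µM (3 libraries), citrinin at 10 µM (3 libraries) or vehicle (3 libraries), each for 72 h in MEM/F12 medium with 15% FBS, and total RNA was taken with TRIzol. The samples were chosen by dose from their titles, the 3 libraries at 20 µM and the 3 at 10 µM, which are 6 of the 9 in the series. They were paired by the replicate number in the same titles. The 3 vehicle libraries entered the model fit, where they help to estimate the spread, and show where each gene stood before the first step. All libraries come from 1 cell line. Whether replicates were grown as separate cultures is not stated in the labels, so each p-value here weighs a dose difference against the spread among these libraries alone, which may be technical.

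Citrinin is a mycotoxin of Penicillium, Aspergillus and Monascus moulds, best known for its toxicity to the kidney. Cells meet oxidants and electrophiles with the transcription factor NRF2, which KEAP1 keeps short-lived in resting cells. When KEAP1 is modified, NRF2 enters the nucleus, pairs with small MAF proteins on antioxidant response elements and raises genes for cystine uptake, glutathione, thioredoxin, NADPH supply and quinone reduction. Neuroblastoma cells are known to exist in a sympathetic (adrenergic) state, marked by factors such as HAND2, GATA3 and ISL1, and in a mesenchymal state, marked by vimentin, fibronectin, CD44 and AP-1 factors such as FOSL1.

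The libraries held 15678443 to 19604367 reads assigned to genes, of which 10.3% to 12.4% came from mitochondrially encoded genes. Levels are given as CPM, counts scaled to the depth of the library with TMM factors of 0.989 to 1.01, in the order of replicates 1, 2 and 3, and 3 reads correspond to 0.153 to 0.194 CPM. That floor covers counting error only. The sympathetic markers PHOX2A, HAND2, GATA2, GATA3 and ISL1 were present in all 6 libraries, with HAND2 at 807 to 1124 CPM at 20 µM and 918 to 1184 CPM at 10 µM. The mesenchymal markers were also present, with fibronectin (FN1) at 2913 to 4101 CPM at 20 µM and 2451 to 3784 CPM at 10 µM. The epithelial marker KRT5 had 0 reads, KRT14 and the neural crest factor FOXD3 had 1 read each over the 9 libraries, and the astrocyte marker GFAP stayed at or below 0.635 CPM in all 9.

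At 20 µM against 10 µM, 79 of 17806 genes tested changed (0.444%), 32 of them higher (0.18%) and 47 lower (0.264%), all protein-coding. Calls are from the quasi-likelihood test of edgeR with the replicate number as a block and a Benjamini-Hochberg adjusted p below 0.05. Without that block no gene passed, with 210 at an unadjusted p below 0.05 against 1568 with it. The higher genes were led by NRF2 targets, with the cystine carrier SLC7A11 the largest change, and included the cytokines CXCL8 and IL1B. The lower genes included the receptor kinases RET and ALK, the neurite protein STMN2 and the neuronal enzyme ADCY1. Most changes were small. SLC7A11 was the one called gene that changed by 2-fold or more, and the median size was 0.36 on the log2 scale for the higher genes and 0.30 for the lower ones. All 79 moved the same way in 3 of 3 same-numbered pairs, as did 4871 of all 17806 genes tested. The calls were made from these same pairs, so their agreement is no separate evidence. When libraries are compared across replicate numbers, 9 of the 32 higher genes and 6 of the 47 lower genes had no overlap between the doses, where 4.87% of all genes tested had none, 2.37% higher and 2.5% lower.

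**Figure D1:**
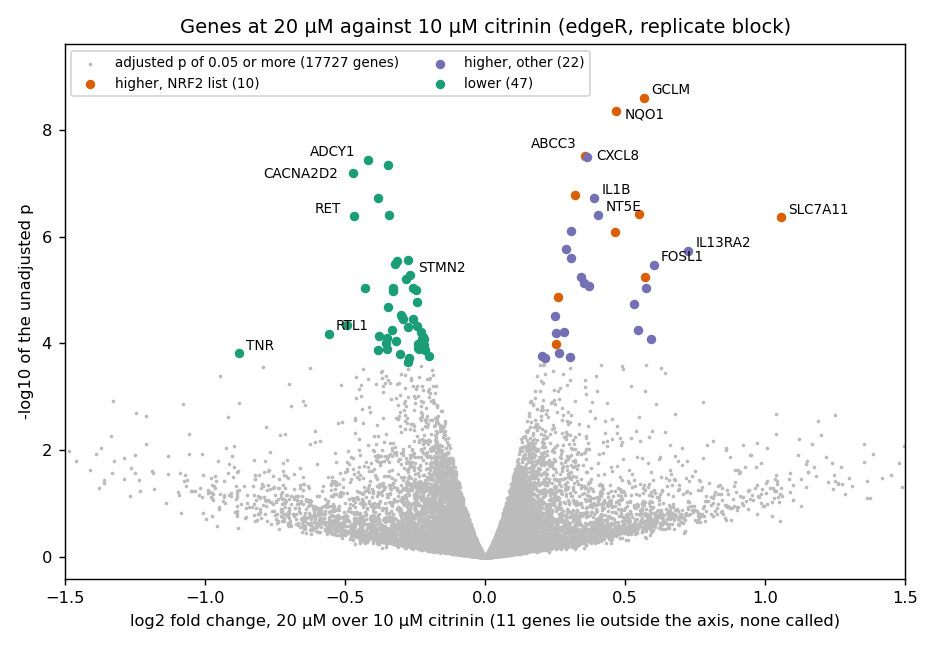
Each point is a gene. The horizontal axis is the log2 fold change, 20 µM over 10 µM citrinin, the vertical axis -log10 of the unadjusted p from edgeR with the replicate block, and the colours mark the 10 called genes of the NRF2 list, the 22 other higher genes and the 47 lower genes. SLC7A11 stands alone at 1.05, while GCLM and NQO1 have the smallest p-values.

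The calls rested on replicate 3 more than on the other numbers. Leaving out all 3 libraries of replicate 3 left 0 genes called by edgeR with the block, with 791 at an unadjusted p below 0.05, whereas 174 were called without replicate 1 and 181 without replicate 2. Among single libraries, 26 genes were called without 20 µM replicate 3, 32 without 20 µM replicate 2, 301 without 20 µM replicate 1, 10 without 10 µM replicate 3, 185 without 10 µM replicate 2 and 50 without vehicle replicate 3. Among the 31 called genes that the naming rule picked, 9 kept their call whichever of the 6 libraries of both doses was left out. These were SLC7A11, GCLM, NQO1, AKR1C3, ABCC3 and CXCL8 on the higher side, and RET, ADCY1 and CACNA2D2 on the lower side. With the 6 libraries of both doses alone, 12 of the 31 lost their call, namely ALK, APLF, BCL2, CHGA, DCX, FNDC5, NFKBIZ, PLXNA4, RTL1, STMN2, TNR and TXNIP. With library totals in place of TMM factors the split was 34 higher and 34 lower.

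Some genes of glutathione supply were among the clearest changes. SLC7A11, the cystine-glutamate exchanger that brings in the cysteine for glutathione (GRCh38 chr4:138164097-138242349, minus strand), had 16.1, 33.8 and 22.8 CPM at 20 µM, against 10.6, 11.5 and 11.97 CPM at 10 µM. Every 20 µM library lay above every 10 µM library, and replicate 2 was the highest at 20 µM. The log2 fold change was 1.05 ± 0.14 (SE; 95% interval 0.76 to 1.35; adjusted p = 0.000517), a 2.08-fold difference.

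GCLM, the modifier subunit of glutamate-cysteine ligase, which carries out the first step of glutathione synthesis (chr1:93885205-93909456, minus strand), had 67.996, 106 and 92.1 CPM at 20 µM, against 45.5, 68.2 and 66.2 CPM at 10 µM. It was higher in each pair, by a log2 fold change of 0.57 ± 0.06, adjusted p = 4.00e-05, although replicate 1 at 20 µM fell within the range at 10 µM. GCLC, the catalytic subunit of the same enzyme, had 57.5, 50.002 and 45.8 CPM at 20 µM, against 57.9, 45.1 and 44.9 CPM at 10 µM, and its groups overlapped throughout. Its log2 fold change of 0.05 ± 0.06, adjusted p = 0.886 did not pass, and the 95% interval ran from -0.07 to 0.18. GSR, glutathione reductase, which returns oxidised glutathione to its reduced form, was higher without overlap, with 105, 115 and 110.4 CPM at 20 µM, against 89.8, 95.3 and 91.8 CPM at 10 µM (log2 fold change 0.25 ± 0.05, adjusted p = 0.0285).

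The promoters of GCLM and TXNRD1 are shown because both genes were called and both hold the core of the antioxidant response element, TGACNNNGC on either strand, which is the element NRF2 binds. Each line gives the 250 bases before the start of transcription in RefSeq (GRCh38.p14), 5′ to 3′ on the gene's strand, with the match in capitals. The GCLM stretch is chr1:93909431-93909680 (minus strand), and the match lies 34 to 26 bases before the start. The TXNRD1 stretch is chr12:104286782-104287031 (plus strand), from the second of its promoter windows in that table, and the match lies 102 to 94 bases before the start. Windows with a single match that lies wholly before the start were chosen for printing, and the first TXNRD1 window, which holds 2 matches, is not shown.
GCLM: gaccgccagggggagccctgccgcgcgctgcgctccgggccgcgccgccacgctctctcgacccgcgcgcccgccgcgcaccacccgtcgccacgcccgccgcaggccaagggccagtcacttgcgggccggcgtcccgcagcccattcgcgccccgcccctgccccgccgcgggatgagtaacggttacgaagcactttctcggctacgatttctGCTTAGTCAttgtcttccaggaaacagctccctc
TXNRD1: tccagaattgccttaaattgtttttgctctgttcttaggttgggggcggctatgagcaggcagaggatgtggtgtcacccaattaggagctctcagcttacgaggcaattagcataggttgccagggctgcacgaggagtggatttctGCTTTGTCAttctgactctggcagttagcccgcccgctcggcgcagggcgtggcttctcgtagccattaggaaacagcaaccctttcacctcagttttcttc
Around both matches 17 of 18 consecutive bases are identical. That stretch was extended outward from the match only while bases agreed, so a difference could fall only within the match. The same core was found in 3 of 7 windows (42.9%) of the called NRF2-list genes, counting the 5 of 10 genes that have a window. Those 3 windows belong to 2 genes, GCLM and TXNRD1, which are the genes printed here. In the whole NRF2 list 8 of 30 windows (26.7%) held it. It was found in 7 of 33 windows (21.2%) of all genes called higher and in 7 of 59 (11.9%) of those called lower. Of all 35116 windows of 300 bases, 250 before and 50 after the start, 13.3% held it. A match describes these letters, not a bound site.

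Reductases of quinones, thioredoxin and carbonyls rose beside the glutathione genes. NQO1, which reduces quinones with NADPH or NADH (chr16:69706996-69726951, minus strand), had 174, 201 and 164 CPM at 20 µM, against 117, 157 and 118 CPM at 10 µM. The doses did not overlap, and the log2 fold change was 0.47 ± 0.05, adjusted p = 4.00e-05. TXNRD1, the cytosolic thioredoxin reductase, had 477, 687 and 565 CPM at 20 µM, against 406, 524 and 448 CPM at 10 µM. It was higher in every pair while the ranges of both doses overlapped (log2 fold change 0.32 ± 0.05, adjusted p = 0.000338). AKR1C3, an aldo-keto reductase of steroids and prostaglandins, had 43.1, 41.8 and 32.4 CPM at 20 µM, against 26.2, 27.6 and 25.8 CPM at 10 µM, without overlap (log2 fold change 0.55 ± 0.08, adjusted p = 0.000517). AKR1C3 has close paralogs, and reads that match several places were not counted, so its level is uncertain. OSGIN1, an NRF2-induced growth inhibitor, had 24.5, 19.1 and 17.8 CPM at 20 µM, against 15.02, 13.6 and 12.6 CPM at 10 µM. Its lowest 20 µM library was above its highest 10 µM library, and the log2 fold change was 0.57 ± 0.10, adjusted p = 0.00382.

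ABCC3, an exporter of conjugated organic anions, had 147, 216 and 248 CPM at 20 µM, against 119, 168 and 189 CPM at 10 µM. It was higher in each pair by a log2 fold change of 0.36 ± 0.05, adjusted p = 0.000129, with a range at 20 µM that overlapped that at 10 µM. TRIM16L, a gene copied from TRIM16 whose counts share that paralog's uncertainty, had 58.4, 51.5 and 43.2 CPM at 20 µM, against 38.7, 39.5 and 32.6 CPM at 10 µM, with the 3 higher values all at 20 µM (log2 fold change 0.46 ± 0.07, adjusted p = 0.000871). GSR and TRIM16L are named here after their values were seen.

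Not every classical target passed. HMOX1, which breaks down heme, had 11.2, 16.3 and 10.1 CPM at 20 µM, against 9.76, 7.04 and 7.11 CPM at 10 µM. Its doses did not overlap and its log2 fold change of 0.64 ± 0.15 was among the larger ones, yet the adjusted p was 0.0639. With no low-count filter it passed, with an adjusted p of 0.000999. SRXN1, which repairs oxidised peroxiredoxins, had 1.45, 1.03 and 0.971 CPM at 20 µM, against 1.098, 1.55 and 0.563 CPM at 10 µM, and its difference of 0.15 ± 0.39, adjusted p = 0.962 is not separable from 0 at this depth.

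Of the 35 genes in the NRF2 list, 33 had enough reads to be tested, and GPX2 and NMRAL2P did not. Of the 33, 10 were higher, 0 lower and 23 not called, where 0.18% of all genes tested were higher. The median log2 fold change over the 33 was 0.23, against -0.0014 over all genes tested, and 32 of the 33 had a positive value. FTH1, the ferritin heavy chain, was the one with a negative value. The count of 10 became 5 without 10 µM replicate 3 and 0 without replicate 3 or without the block, with list medians of single pairs of 0.28, 0.19 and 0.23. Among 11 tested regulators of NRF2 itself, such as its inhibitor KEAP1, 0 were called by edgeR, DESeq2 or limma-voom, 0 had an unadjusted p below 0.05, and their median was 0.08. Over all 17806 genes tested, 1568, 859 and 1519 were below 0.05 by these tools, and edgeR called 0.444%.

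**Figure D2:**
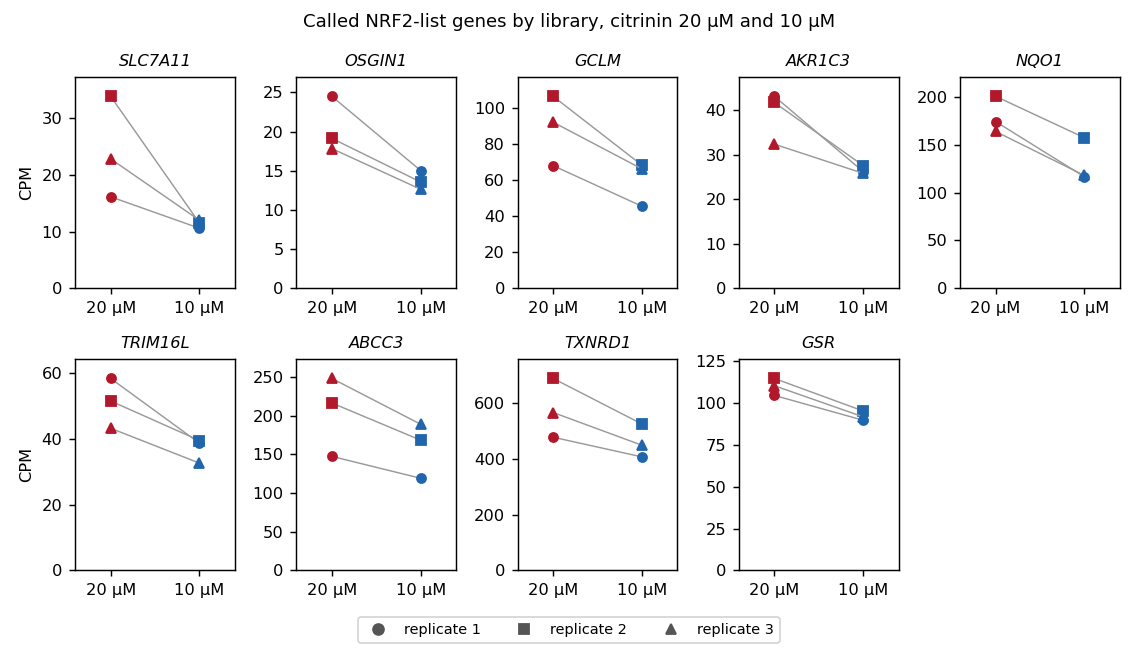
CPM (vertical axes, from 0) of 9 of the 10 called genes of the NRF2 list at 20 µM and 10 µM citrinin. Symbols mark replicates 1, 2 and 3, red stands for 20 µM and blue for 10 µM, and lines join libraries with the same replicate number. Every line falls towards 10 µM, and 6 of the 9 genes show no overlap between doses.

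The other 22 higher genes had varied roles. CXCL8, the chemokine that draws neutrophils (chr4:73740506-73743716, plus strand), had 102, 358 and 499.6 CPM at 20 µM, against 81.4, 262 and 401 CPM at 10 µM. Replicate 1 was far below replicates 2 and 3 at both doses, so the ranges overlapped widely, while each pair was higher at 20 µM. The paired log2 fold change was 0.36 ± 0.05, adjusted p = 0.000129.

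IL1B, the inflammatory cytokine interleukin-1 beta (chr2:112829751-112836903, minus strand), had 30.6, 126 and 183 CPM at 20 µM, against 25.5, 93.7 and 136 CPM at 10 µM, with the same spread between replicates (log2 fold change 0.39 ± 0.06, adjusted p = 0.000338). NFKBIZ, a nuclear IkB protein that shapes NF-kB targets, had 44.3, 124 and 135 CPM at 20 µM, against 40.6, 96.5 and 113 CPM at 10 µM (log2 fold change 0.26 ± 0.06, adjusted p = 0.0372). Its call was lost under DESeq2 (adjusted p = 0.0774) and limma-voom (adjusted p = 0.0862). In the list of inflammatory cytokine and NF-kB feedback genes, these 3 of 25 tested were higher and 0 lower, where 0.18% of all genes tested were higher, with a list median of 0.12, and CCL20, CXCL1 and CXCL3 were not tested for want of reads. The count was 1 without 10 µM replicate 3 and 0 without replicate 3 or without the block. IL24, another cytokine, had 0.181, 0.172 and 0.343 CPM at 20 µM, against 0.462, 0.581 and 0.665 CPM at 10 µM, lower at 20 µM without overlap but at the level of a few reads, and did not pass (adjusted p = 0.518).

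Receptors and surface proteins among the higher genes included IL13RA2, TLR4 and CD44. IL13RA2, a decoy receptor for interleukin-13, had 6.999, 10.5 and 30.5 CPM at 20 µM, against 4.04, 6.71 and 18.4 CPM at 10 µM. Replicate 3 was several-fold above the other numbers at both doses, and the paired log2 fold change was 0.73 ± 0.12, adjusted p = 0.00171. TLR4, the receptor for bacterial lipopolysaccharide, had 16.5, 17.4 and 20.96 CPM at 20 µM, against 10.7, 10.98 and 15.4 CPM at 10 µM, and here the doses did not overlap (log2 fold change 0.57 ± 0.10, adjusted p = 0.00487). CD44, the hyaluronan receptor, had 125, 203 and 297 CPM at 20 µM, against 103, 167 and 232 CPM at 10 µM. It was higher in each pair with overlapping ranges (log2 fold change 0.31 ± 0.05, adjusted p = 0.000866). FOSL1, an AP-1 subunit of the FOS family, had 13.6, 24.9 and 29.4 CPM at 20 µM, against 9.42, 16.5 and 18.7 CPM at 10 µM (log2 fold change 0.60 ± 0.10, adjusted p = 0.00249). APLF, a DNA end-joining factor, had 11.9, 12.3 and 12.9 CPM at 20 µM, against 6.64, 8.07 and 10.03 CPM at 10 µM, without overlap (log2 fold change 0.59 ± 0.13, adjusted p = 0.025).

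The remaining 14 higher genes had log2 fold changes from 0.20 to 0.55, and those given here are named after their values were seen. NT5E, the surface enzyme that turns AMP into adenosine, had 99.6, 248 and 396 CPM at 20 µM, against 87.6, 168 and 294 CPM at 10 µM. It was higher in each pair, most in replicates 2 and 3, while the ranges of the doses overlapped (log2 fold change 0.40 ± 0.06, adjusted p = 0.000517). CXCL12, the chemokine that binds CXCR4, had 201, 244 and 296 CPM at 20 µM, against 171, 201 and 233 CPM at 10 µM. Its pairs differed by similar ratios and its ranges overlapped (log2 fold change 0.29 ± 0.05, adjusted p = 0.00171). ASPH, an aspartate hydroxylase of the endoplasmic reticulum, had 229, 329 and 306 CPM at 20 µM, against 205, 241 and 248 CPM at 10 µM. It was the one higher gene outside the NRF2 list that was also called in the first dose step, with 0.31 ± 0.05, adjusted p = 0.00222 in the second step and 0.27 ± 0.05 in the first (adjusted p = 0.0454).

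SLCO2B1, an organic anion carrier, had 20.5, 38.03 and 30.1 CPM at 20 µM, against 16.2, 22.7 and 21.1 CPM at 10 µM. Replicate 2 rose most (log2 fold change 0.55 ± 0.11, adjusted p = 0.0202). AKR1B1, aldose reductase, had 589.8, 886 and 869 CPM at 20 µM, against 456, 785 and 757 CPM at 10 µM. Replicate 1 was the lowest at both doses and each pair was higher at 20 µM (log2 fold change 0.25 ± 0.05, adjusted p = 0.0129). UBASH3B, a phosphatase that dampens receptor signalling, had 8.51, 35.3 and 47.5 CPM at 20 µM, against 7.45, 21.8 and 32.7 CPM at 10 µM, with replicate 1 again several-fold below the others (log2 fold change 0.53 ± 0.10, adjusted p = 0.00848). The others included the tumour necrosis factor receptor TNFRSF1A (0.28 ± 0.06), the oncostatin M receptor OSMR (0.22 ± 0.05), the fatty aldehyde dehydrogenase ALDH3A2 (0.25 ± 0.05) and the lamin gene LMNA (0.20 ± 0.05), as log2 fold changes.

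At 10 µM the ratio of the highest to the lowest library had a median of 1.85 over the 22 genes, while their median dose fold was 1.27, and the ratio exceeded the dose fold in 19 of 22. Over all genes tested these medians were 1.29 and 1.06, and the ratio exceeded the dose fold in 16347 of 17806. All 22 were lowest in replicate 1 at 10 µM and 19 were highest in replicate 3, whereas 6817 of 17806 genes tested were lowest in replicate 1. For the 10 NRF2-list genes the median ratio at 10 µM was 1.20 and the median dose fold 1.38. CD44 and FOSL1 belong to the list of mesenchymal-state markers, in which 2 of 44 tested genes were higher (0.18% of all genes tested), 0 were lower and the median was 0.03. The summed level of that list was 10382 to 13690 CPM at 20 µM and 9630 to 13198 CPM at 10 µM, its part in these results was not tested, and in bulk RNA more cells of a state cannot be told apart from more RNA per cell.

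**Figure D3:**
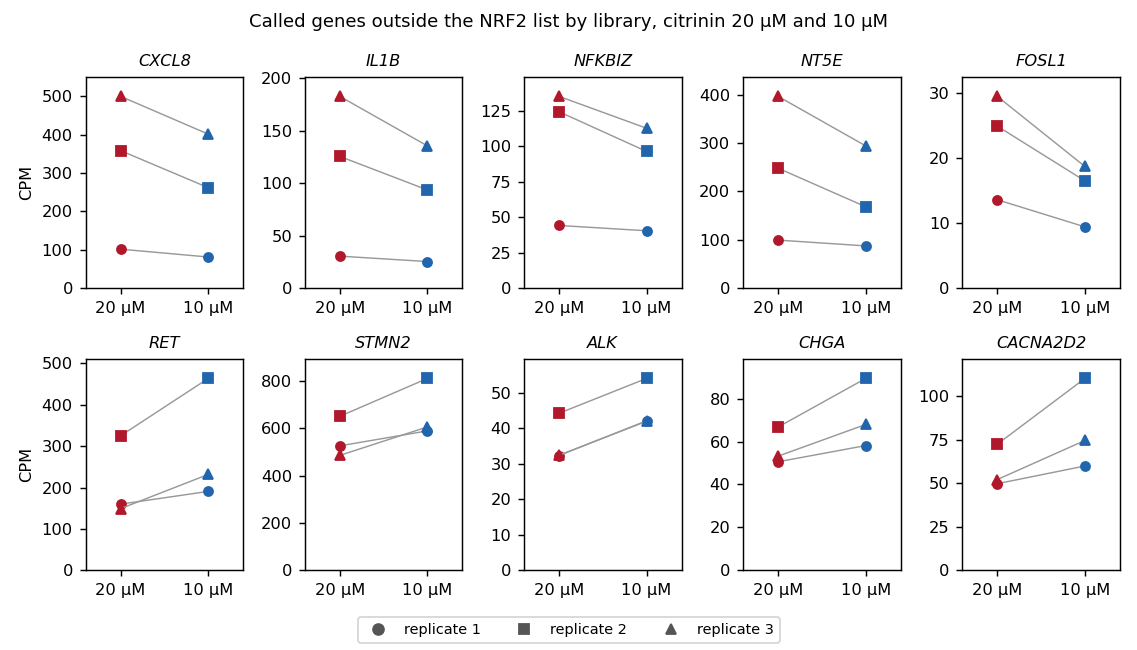
CPM (vertical axes, from 0) of 5 higher and 5 lower genes outside the NRF2 list at 20 µM and 10 µM citrinin. Symbols mark replicates 1, 2 and 3, red stands for 20 µM and blue for 10 µM, and lines join the same replicate number. Replicate 1 lies lowest for the 5 higher genes in the upper row, and replicate 2 lies highest for the 5 lower genes in the lower row.

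Genes of the sympathetic neuroblast made up part of the lower set. RET, the receptor kinase for the glial cell line-derived neurotrophic factor family (chr10:43077027-43130351, plus strand), had 160.0, 325 and 149 CPM at 20 µM, against 191, 464 and 232 CPM at 10 µM. Replicate 2 was the highest at both doses and each pair was lower at 20 µM, with overlapping ranges. The log2 fold change was -0.47 ± 0.06, adjusted p = 0.000517. ALK, a receptor kinase that is mutated in some neuroblastomas (chr2:29192774-29921566, minus strand), had 32.3, 44.2 and 32.4 CPM at 20 µM, against 42.1, 54.04 and 41.996 CPM at 10 µM. It was lower in every pair, and only replicate 2 at 20 µM lay within the range at 10 µM (log2 fold change -0.35 ± 0.07, adjusted p = 0.00934). STMN2, a tubulin-binding protein of growing neurites (chr8:79610814-79666175, plus strand), had 526, 650.1 and 485 CPM at 20 µM, against 589, 810.05 and 605 CPM at 10 µM. Its change was small beside the level, -0.27 ± 0.05, adjusted p = 0.0038. TFAP2B, a transcription factor of the sympathetic lineage named after its values were seen, had 163, 83.9 and 72.1 CPM at 20 µM, against 179.9, 116 and 95.8 CPM at 10 µM (log2 fold change -0.33 ± 0.07, adjusted p = 0.0204).

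Of 26 tested genes of the sympathetic list, 4 were lower, 0 higher and 22 not called, where 0.264% of all genes tested were lower, and INSM1 was not tested. The median over the 26 was -0.17 (log2), and 25 values were negative. List medians of single pairs were -0.06, -0.21 and -0.23, with 10, 1 and 2 of the 26 positive in pairs 1, 2 and 3. The 4 calls became 10 without 20 µM replicate 1, 7 without replicate 1, 2 without 20 µM replicate 2, 1 without 20 µM replicate 3, 1 without 10 µM replicate 3, 1 with the 6 libraries alone and 0 without replicate 3. The summed level of the list was 3460 to 4317 CPM at 20 µM and 4057 to 4973 CPM at 10 µM.

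In the list of axon guidance and neurite growth 3 genes fell. DCX, doublecortin, a microtubule protein of migrating neurons, had 32.1, 87.7 and 49.2 CPM at 20 µM, against 37.8, 106 and 63.9 CPM at 10 µM. Replicate 2 was above the others at both doses (log2 fold change -0.30 ± 0.06, adjusted p = 0.013). SEMA5A, a semaphorin, had 165, 54.01 and 68.04 CPM at 20 µM, against 218, 61.4 and 86.4 CPM at 10 µM, with replicate 1 the highest (log2 fold change -0.32 ± 0.05, adjusted p = 0.00248). PLXNA4, a semaphorin co-receptor, had 138, 149 and 115 CPM at 20 µM, against 169, 166 and 131 CPM at 10 µM (log2 fold change -0.21 ± 0.05, adjusted p = 0.0337). These were the 3 lower genes of 39 tested in the axon guidance list, where 0 were higher and the median was -0.09, beside 0.264% lower among all genes tested. That count was 6 without 20 µM replicate 1, 5 without 10 µM replicate 2, 5 without replicate 2, 1 without 20 µM replicate 2, 1 with the 6 libraries alone, and 0 without 20 µM replicate 3, 10 µM replicate 3 or replicate 3 as a whole. TNR, the matrix glycoprotein tenascin-R, had 2.17, 5.21 and 1.599 CPM at 20 µM, against 2.599, 10.1 and 4.04 CPM at 10 µM, which is -0.88 ± 0.20, adjusted p = 0.0375 as a log2 fold change, on low counts, and it was not called by limma-voom (adjusted p = 0.0931).

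Genes of neuronal signalling and secretion among the lower set included ADCY1, CACNA2D2 and CHGA. ADCY1, a calcium-stimulated adenylyl cyclase (chr7:45574140-45723116, plus strand), had 81.4, 70.05 and 68.9 CPM at 20 µM, against 114, 95.2 and 86.6 CPM at 10 µM. All 20 µM libraries were below all 10 µM libraries, and the log2 fold change was -0.42 ± 0.05, adjusted p = 0.000129. CACNA2D2, an auxiliary subunit of voltage-gated calcium channels, had 49.8, 72.5 and 52.2 CPM at 20 µM, against 60.02, 110.3 and 74.7 CPM at 10 µM. The pairs agreed in direction while the ranges overlapped (log2 fold change -0.47 ± 0.06, adjusted p = 0.000164). CHGA, chromogranin A of dense-core vesicles, had 50.6, 66.7 and 53.2 CPM at 20 µM, against 58.1, 89.4 and 67.9 CPM at 10 µM (log2 fold change -0.33 ± 0.06, adjusted p = 0.00487). In the lists these belong to, CACNA2D2 was the 1 called gene of 30 voltage-gated ion channels. CHGA was the 1 called gene of 17 for catecholamine synthesis and handling. Of all genes tested, 0.264% were called lower. Of 30 tested synaptic vesicle genes 0 were called by edgeR, DESeq2 or limma-voom, 2 had an unadjusted p below 0.05 by each tool, and the median was -0.08. These tools had 1568, 859 and 1519 of all 17806 genes tested below 0.05.

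The other lower genes picked by the rule had varied roles. PPP1R12B, a regulatory subunit of myosin phosphatase, had 96.4, 79.96 and 107 CPM at 20 µM, against 125, 97.4 and 148 CPM at 10 µM (log2 fold change -0.38 ± 0.05, adjusted p = 0.000338). CUX2, a homeodomain factor of neurons, had 29.1, 33.8 and 21.8 CPM at 20 µM, against 37.2, 46.7 and 29.9 CPM at 10 µM (log2 fold change -0.43 ± 0.08, adjusted p = 0.00487). FNDC5, the precursor of irisin, had 22.1, 11.5 and 9.83 CPM at 20 µM, against 27.5, 17.05 and 15.5 CPM at 10 µM (log2 fold change -0.49 ± 0.10, adjusted p = 0.0172). In each of these, all pairs were lower at 20 µM while the ranges of the doses overlapped. RTL1, an imprinted gene derived from a retrotransposon, had 17.9, 7.96 and 5.77 CPM at 20 µM, against 24.3, 10.7 and 10.7 CPM at 10 µM (log2 fold change -0.56 ± 0.12, adjusted p = 0.0216). It lies antisense to imprinted transcripts, and these counts do not separate strands.

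BCL2 and TXNIP each carry the single call of a stress list, where 0.264% of all genes tested were called lower. BCL2, which restrains apoptosis at mitochondria, had 146, 117 and 113 CPM at 20 µM, against 167, 135 and 136 CPM at 10 µM (log2 fold change -0.22 ± 0.05, adjusted p = 0.0242), and it was the 1 called gene of 27 apoptosis regulators. TXNIP, which binds and inhibits thioredoxin, had 231, 214 and 218 CPM at 20 µM, against 257, 248 and 271 CPM at 10 µM. Its doses did not overlap, and the log2 fold change was -0.23 ± 0.05, adjusted p = 0.021. It was the 1 called gene of 23 in the list of other antioxidant enzymes, although it is an inhibitor and not an enzyme. With the 6 libraries of both doses alone neither was called (adjusted p = 0.222 for BCL2 and 0.195 for TXNIP), each lost its call in 3 of 6 refits without a single library of these doses, and BCL2 also did with library totals (adjusted p = 0.0524).

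Further lower genes, named after their values were seen, were of several kinds. KIF26B, an atypical kinesin, had 196, 109 and 122 CPM at 20 µM, against 254, 139 and 152 CPM at 10 µM. Replicate 1 was the highest at both doses and each pair was lower at 20 µM (log2 fold change -0.35 ± 0.05, adjusted p = 0.000137). PLCXD3, a phospholipase C-like protein, had 66.8, 127 and 73.9 CPM at 20 µM, against 86.2, 154 and 96.2 CPM at 10 µM (log2 fold change -0.34 ± 0.05, adjusted p = 0.000517). C7, a component of the complement membrane attack complex, had 626, 461 and 284 CPM at 20 µM, against 739, 539 and 366 CPM at 10 µM. It differed more between replicate numbers than between doses, with replicate 3 the lowest (log2 fold change -0.28 ± 0.05, adjusted p = 0.00236). NSG2, a neuronal endosomal protein, had 68.4, 175 and 130.4 CPM at 20 µM, against 75.2, 232 and 169 CPM at 10 µM, with replicate 1 the lowest (log2 fold change -0.31 ± 0.05, adjusted p = 0.00236).

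IGFBP5, which binds insulin-like growth factors, had 414, 292 and 319.6 CPM at 20 µM, against 518, 361 and 351 CPM at 10 µM. Its ranges overlapped and each pair was lower at 20 µM (log2 fold change -0.26 ± 0.05, adjusted p = 0.00487). PEG10, an imprinted gene derived from a retrotransposon, had 208, 231 and 231 CPM at 20 µM, against 254, 266 and 274 CPM at 10 µM, without overlap (log2 fold change -0.25 ± 0.04, adjusted p = 0.00506). SYT7, a calcium sensor of vesicle release, had 12.1, 48.3 and 33.8 CPM at 20 µM, against 12.8, 65.5 and 46.96 CPM at 10 µM, with a wide spread between replicates (log2 fold change -0.38 ± 0.08, adjusted p = 0.0231).

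The first dose step, 10 µM against vehicle, called 6 of 17806 genes (0.0337%), all higher. They included NQO1, TXNRD1, OSGIN1 and GCLM of the NRF2 list, and ASPH. That count was 2 without vehicle replicate 1, 2 or 3 or without 10 µM replicate 3, 3 without 20 µM replicate 3, 16 without 20 µM replicate 1 and 0 without replicate 3 as a whole. The first and second steps share the 10 µM libraries, so a high value there raises one step and lowers the other, and their values stand side by side without a test of likeness. Over the 10 called NRF2-list genes the median log2 fold change was 0.47 in the second step and 0.36 in the first, and all 10 were positive in both. Over the 22 other higher genes the medians were 0.35 and 0.05, with 15 of 22 in the same direction. Over the 47 lower genes they were -0.30 and -0.09, with 42 of 47 in the same direction. All of these genes were chosen for passing in the second step. That choice by itself favours larger values in the second step than in the first.

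Levels over the 3 doses are given for single genes. NQO1 had 88.3, 96.96 and 87.9 CPM with vehicle, 117, 157 and 118 CPM at 10 µM and 174, 201 and 164 CPM at 20 µM, with no overlap between any of the doses. Its first step was 0.51 ± 0.06 (adjusted p = 2.47e-05), close in size to its second of 0.47, and the difference of the steps was -0.04 ± 0.09. OSGIN1 had 10.1, 7.72 and 7.52 CPM with vehicle, 15.02, 13.6 and 12.6 CPM at 10 µM and 24.5, 19.1 and 17.8 CPM at 20 µM, again in separate ranges. Its first step was 0.71 ± 0.11 (adjusted p = 0.0058) against 0.57 in the second. SLC7A11 had 7.49, 8.52 and 7.82 CPM with vehicle, against 10.6, 11.5 and 11.97 CPM at 10 µM, so its 3 doses also lay in separate ranges. Its first step of 0.53 ± 0.16 had an unadjusted p of 0.0036 by edgeR and did not pass (adjusted p = 0.9997).

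CXCL8 had 77.6, 283 and 395 CPM with vehicle, much as at 10 µM. Its first step was -0.01 ± 0.05 and the difference of the steps was 0.37 ± 0.08 (unadjusted p = 0.000107). IL1B had 25.6, 94.6 and 149 CPM with vehicle, with a first step of -0.06 ± 0.06 and a difference of 0.45 ± 0.10 (unadjusted p = 8.82e-05). CACNA2D2 had 63.4, 113 and 72.7 CPM with vehicle, with a first step of -0.02 ± 0.06 and a difference of -0.45 ± 0.11 (unadjusted p = 0.000278). These 3 had the smallest p-values of that contrast, but 0 genes passed after adjustment over all genes tested by edgeR, DESeq2 or limma-voom, and the smallest adjusted p by edgeR was 0.955. At an unadjusted p below 0.05 there were 629 genes by edgeR, 214 by DESeq2 and 629 by limma-voom, of 17806 tested. Each count is below what that threshold gives on average when no gene differs. These values do not separate genes that respond to the second step alone from genes that respond to both. With no low-count filter 3 genes passed, and 8 did without 20 µM replicate 1, 3 without replicate 1 and 1 without replicate 2.

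**Figure D4:**
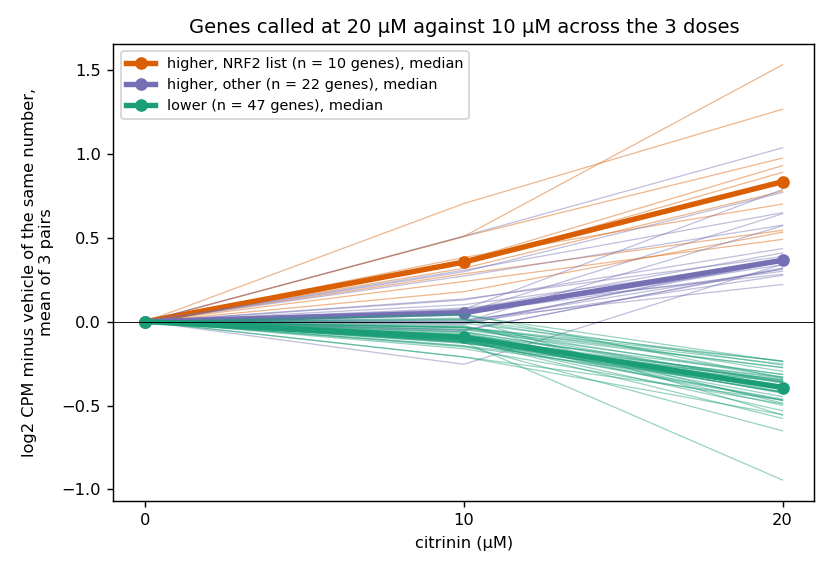
Genes called at 20 µM against 10 µM, followed over vehicle (0), 10 and 20 µM citrinin (horizontal axis). The vertical axis is log2 CPM minus that of the vehicle library of the same replicate number, averaged over 3 pairs, with thin lines for genes and thick lines for medians. The medians at 10 and 20 µM were 0.36 and 0.83 for the 10 NRF2-list genes, 0.05 and 0.37 for the 22 other higher genes, and -0.09 and -0.39 for the 47 lower genes, which were chosen by their difference between the last 2 doses.

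The lists of p53 targets, protein folding stress and heat shock held no called gene. Among 30 tested p53 targets 0 were called by edgeR, DESeq2 or limma-voom, with 11, 7 and 10 at an unadjusted p below 0.05 by these tools. Over all 17806 genes tested, 1568, 859 and 1519 were below 0.05 by the same tools. As edgeR called 79 of all genes (0.444%), a list of this size without a call is the usual outcome. Of the 30, 26 had a positive log2 fold change and the median was 0.12. CDKN1A, the p53-induced inhibitor of cyclin-dependent kinases, had 177, 474 and 500.3 CPM at 20 µM, against 165, 417 and 449.9 CPM at 10 µM, with replicate 1 far below the others at both doses (log2 fold change 0.15 ± 0.05, adjusted p = 0.236). MDM2, which marks p53 for degradation, had 70.7, 167 and 181 CPM at 20 µM, against 66.9, 139.98 and 157 CPM at 10 µM (log2 fold change 0.19 ± 0.05, adjusted p = 0.14). Both were higher in each of 3 pairs without passing, and both passed without 20 µM replicate 1 (adjusted p = 0.0412 for CDKN1A and 0.00659 for MDM2). That refit called 301 genes in all, against 79 in the full fit.

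HSPA5, the chaperone that reports protein stress in the endoplasmic reticulum, had 433, 560.3 and 578 CPM at 20 µM, against 432, 540.2 and 585 CPM at 10 µM. Its log2 fold change was 0.01 ± 0.05 with a 95% interval of -0.08 to 0.11. DDIT3, which encodes the stress factor CHOP, had 10.1, 6.53 and 8.11 CPM at 20 µM, against 6.07, 10.5 and 12.5 CPM at 10 µM, and ATF3, another stress-induced factor, had 7.3004, 12.6 and 7.71 CPM at 20 µM, against 5.83, 11.9 and 10.5 CPM at 10 µM. Their pairs disagreed in direction, and neither passed (adjusted p = 0.884 for DDIT3 and 0.984 for ATF3). DDIT3 passed as lower by edgeR without 20 µM replicate 1 (log2 fold change -0.58, adjusted p = 0.0457). It also did so without replicate 1 as a whole (-0.65, adjusted p = 0.031). The lists of the endoplasmic reticulum response (30 tested, median 0.03), the integrated stress response (35 tested, median 0.02) and cytosolic heat shock proteins (31 tested, median 0.07) held 0 called genes by edgeR, DESeq2 or limma-voom, and 5, 3 and 6 genes in that order had an unadjusted p below 0.05 by edgeR. By that tool 1568 of all 17806 genes tested were below 0.05, and 79 (0.444%) were called.

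CYP1A1, the classical target of the aryl hydrocarbon receptor, had 0.603, 1.32 and 1.54 CPM at 20 µM, against 2.08, 2.195 and 2.097 CPM at 10 µM. It was lower at 20 µM without overlap, on few reads, and did not pass (log2 fold change -0.90 ± 0.31, adjusted p = 0.316). The one call among 8 tested targets of that receptor was NQO1, which the NRF2 list holds as well. Of all genes tested, 0.18% were called higher. TET1, an enzyme that oxidises methylated cytosine in DNA, had 18.5, 17.5 and 20.2 CPM at 20 µM, against 28.1, 20.3 and 24.3 CPM at 10 µM. Its doses did not overlap, the log2 fold change was -0.36 ± 0.09, adjusted p = 0.0816, and with no low-count filter it passed (adjusted p = 0.0188). Of 9 DNA methylation enzymes 0 were called by edgeR, DESeq2 or limma-voom, with 3, 2 and 3 at an unadjusted p below 0.05. The same tools had 1568, 859 and 1519 of all 17806 genes tested below 0.05, and edgeR called 0.444% of all genes.

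Several lists moved in opposite directions in different pairs. The 13 mitochondrially encoded genes had medians of 0.13, -0.24 and -0.05 in pairs 1, 2 and 3, the 14 tubulins 0.09, -0.31 and -0.05, the 46 DNA replication genes 0.09, -0.20 and -0.05, and the 40 cytosolic ribosomal proteins 0.10, -0.19 and -0.04. By contrast the NRF2 and p53 lists were positive, and the sympathetic, axon guidance, neurotransmitter receptor and synaptic vesicle lists negative, in all 3 pairs. Such agreement was not particular to these lists. The autophagy, heat shock, interferon, inflammatory, endoplasmic reticulum response, apoptosis, iron handling and mesenchymal lists were also positive in each pair. The lists of ADAMTS, ADAM and collagen genes, catecholamine handling, DNA methylation and voltage-gated channels were also negative in each pair.

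**Figure D5:**
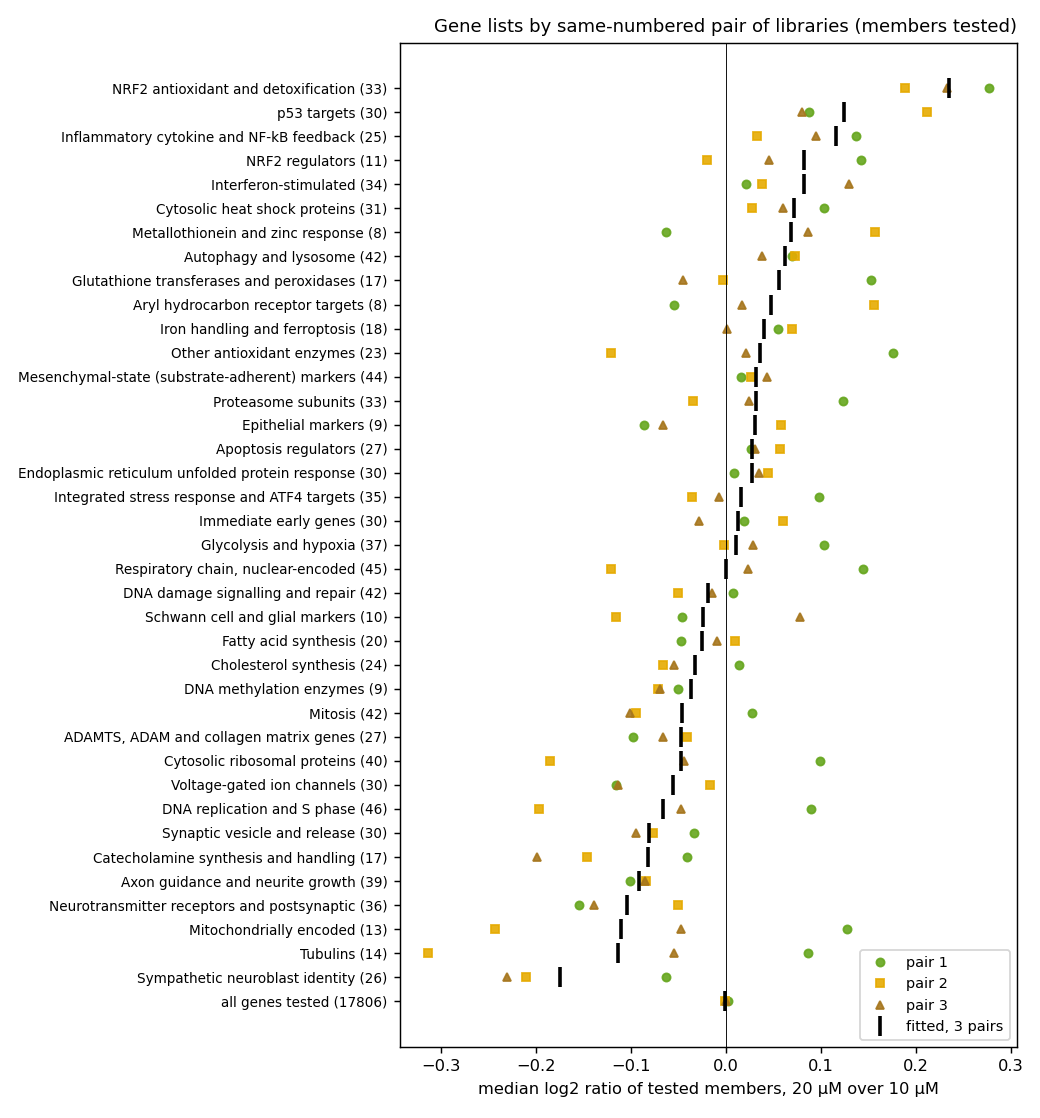
Median log2 ratio of the tested members of each gene list (number tested in brackets), 20 µM over 10 µM (horizontal axis). Coloured symbols are the 3 same-numbered pairs and the black bar is the value fitted over 3 pairs. The NRF2 list lies furthest to the right at 0.23 and the sympathetic list furthest to the left at -0.17, while all genes tested lie at -0.0014.

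Genes called without one replicate number were also looked up in the pair that had been left out. Without replicate 1, 73 higher and 100 lower genes were called that the full fit had tested, and 48 and 64 of them moved the same way in pair 1. Of all genes tested, 50.4% were higher and 49.6% lower in that pair. Without replicate 2, 70 higher and 111 lower genes were called, of which 48 and 84 moved the same way in pair 2. In pair 2, 49.6% of all genes tested were higher and 50.4% lower. The higher genes had a median log2 ratio of 0.079 in left-out pair 1 and 0.155 in left-out pair 2. For the lower genes these medians were -0.079 and -0.147. Without replicate 3 there were no called genes to look up.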

How the data were processed

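RNA-seq libraries of SH-SY5Y cells were compared between 20 µM and 10 µM citrinin. Per the submitters' processing notes, FastQC, cutadapt, STAR and edgeR were used with GRCh38. Versions were not given in the sources used here. Raw counts of reads per gene, for both strands together and for each strand, were deposited for each library. The joint count was used, because reads fell on both strands about equally (ratio 0.981 to 0.993), so reads of genes that overlap on opposite strands are not separated. Reads that were unmapped, outside genes, ambiguous or mapped to several places were left out, and 76.4% to 78.0% were assigned. A deposited normalized table was not used.

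Of 61487 identifiers, 42150 had a symbol (105 of them from GENCODE 29, which also gave coordinates), 36838 had a read and 17806 passed filterByExpr. edgeR 4.0.16 (R 4.3.3) was fitted robustly to all 9 libraries with dose and replicate number as terms, 4 residual degrees of freedom and TMM factors. The standard error is the log2 fold change divided by the square root of F. Replicate numbers come from the titles. Deviations from group means correlated at 0.457 to 0.685 between same-numbered libraries and at -0.545 to 0.139 between others, and the block was kept. No pair of libraries of a group agreed within counting noise (8.85 or more in chi-square over degrees of freedom). DESeq2 1.42.0 and limma 3.58.1 (voom) were alternatives. The scripts were tested on simulated counts.

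The comparison, the 38 gene lists and the naming rule were chosen with earlier results of these data known. The rule takes the 8 higher and 8 lower called protein-coding genes with the largest change, a mean of at least 2 CPM and 1 direction in all pairs, up to 3 called members of each list by p, the 3 genes with the smallest p where a contrast calls fewer, and 20 fixed genes. Promoter sequences are RefSeq's (GRCh38.p14). A few genes that the lists or the rule take in are not reported here.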

Additional observations from a re-analysis of the deposited data

How the results depend on the processing

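The number of genes called at 20 µM against 10 µM depended on the pairing. With no replicate block it was 0, as were the counts for 10 µM against vehicle and for the NRF2, sympathetic, inflammatory and axon guidance lists. With the block on the 6 libraries of both doses alone, it was 30 (22 higher, 8 lower), with 1 call in the sympathetic and 1 in the axon guidance list. With no low-count filter it was 188, with 3 calls for the difference of the steps, 23 for 10 µM against vehicle, 5 for the inflammatory and 7 for the axon guidance list. It was 68 by DESeq2 and 77 by limma-voom. Leaving out a library, or all libraries of 1 number, gave 0 to 301 calls at 20 µM against 10 µM, 0 to 8 for the difference of the steps, 0 to 16 for 10 µM against vehicle, and 0 to 14, 0 to 10, 0 to 4 and 0 to 6 for the NRF2, sympathetic, inflammatory and axon guidance lists. Leaving out vehicle libraries was chosen after the data were seen. Among the named genes, 4 uncalled ones changed sign when libraries were left out, SRXN1 (-0.14 to 0.57), ATF3 (-0.19 to 0.18), HSPA5 (-0.021 to 0.051) and DDIT3 (-0.65 to 0.023), and the cause was not tested. Low counts limit SRXN1, IL24 and CYP1A1, and 3 pairs limit every p-value here.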

Other observations

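Transcript lengths of the called genes were tabulated as a description. The longest annotated transcript had a median of 6165 nt among the 47 lower genes and 3912 nt among the 32 higher genes, against 3236 nt among all genes tested. Their median level over the 6 libraries was 109 CPM for the lower and 90.0 CPM for the higher genes, against 17.7 CPM over all genes tested. All called genes were protein-coding, against 13728 of the 17806 genes tested, so both comparisons set them beside a mix of gene types.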
